A study of Mus musculus with 12 samples.

Results

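The 10 genes described here are markers of macrophages and other myeloid cells, chosen by name from the count table: Ptprc, Laptm5, Csf1r, Cd14, Tyrobp, Fcer1g, Cybb, Lyz2, Cd68 and Lgals3. All 10 were among the 23420 genes counted. They were followed in whole kidneys of C57BL/6J male mice aged 8 to 15 weeks, 4 kidneys in each of 3 groups. Whether control and ischemic kidneys came from the same mice is not given in the sources used here. The control group held kidneys taken at nephrectomy, although their labels carry the same 20 min of ischemia and 24 h before collection as the others. In both other groups the renal pedicle had been closed for 20 min with a remotely activated clamp and the kidney was taken 24 h later. These mice were either conscious, with isoflurane given only briefly to close and open the clamp, or anaesthetised with ketamine and xylazine, and they had received buprenorphine after surgery. The submitters' titles and group field disagree on which ischemic mice were awake: set A is anaesthetised by title and conscious by group field, and set B is conscious by title and anaesthetised by group field. The names set A and set B are therefore used, and no direction was assigned to anaesthesia.

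Macrophages reside between the tubules of the normal kidney, where they clear debris and depend on signals through the receptor Csf1r. After an ischemic injury, neutrophils and monocytes enter from the blood, and the monocytes become macrophages that first promote inflammation and later repair. The genes chosen cover several roles. Ptprc (CD45) and Laptm5 are found in nearly all leukocytes, Csf1r and Cd14 are surface receptors, Tyrobp and Fcer1g are adaptor proteins that carry signals from Fc and other activating receptors, and Cybb, Lyz2, Cd68 and Lgals3 serve in the oxidative burst, in the digestion of bacterial walls, in late endosomes and in the binding of sugars. Cd14 and Lgals3 can also be made by injured tubular epithelium, so neither is restricted to myeloid cells.

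Library totals ran from 15367342 to 44793350 counts, with medians of 32884589.5 for control, 27158369.5 for set A and 18181497.5 for set B. Levels are given as CPM (the count scaled by library size and TMM factor), in the order of replicates 1 to 4. A total of 3 counts was taken as the floor, which is 0.0661 to 0.19 CPM depending on the kidney and covers counting error only. The filter of edgeR on low counts kept 11664 genes and 7 of the 10 markers: Lyz2, Tyrobp and Fcer1g did not pass and have no test. A gene counts as changed where its adjusted p (Benjamini-Hochberg, over all genes tested) was below 0.05 by the quasi-likelihood test of edgeR.

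The markers did not move in 1 direction after ischemia. Lgals3 was 10.9-fold higher in set A than in control, or 12.7-fold in set B, Cd14 was counted only in ischemic kidneys, and Csf1r was 3.84-fold lower, or 4.94-fold in set B. The leukocyte genes Ptprc and Laptm5, the oxidase gene Cybb and the macrophage gene Cd68 did not pass the test in either set. Tyrobp was listed at 0 in all 12 kidneys, and Fcer1g and Lyz2 were each counted in a few kidneys. In whole-kidney RNA, fewer cells of a type and less RNA per cell cannot be told apart.

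**Figure D1:**
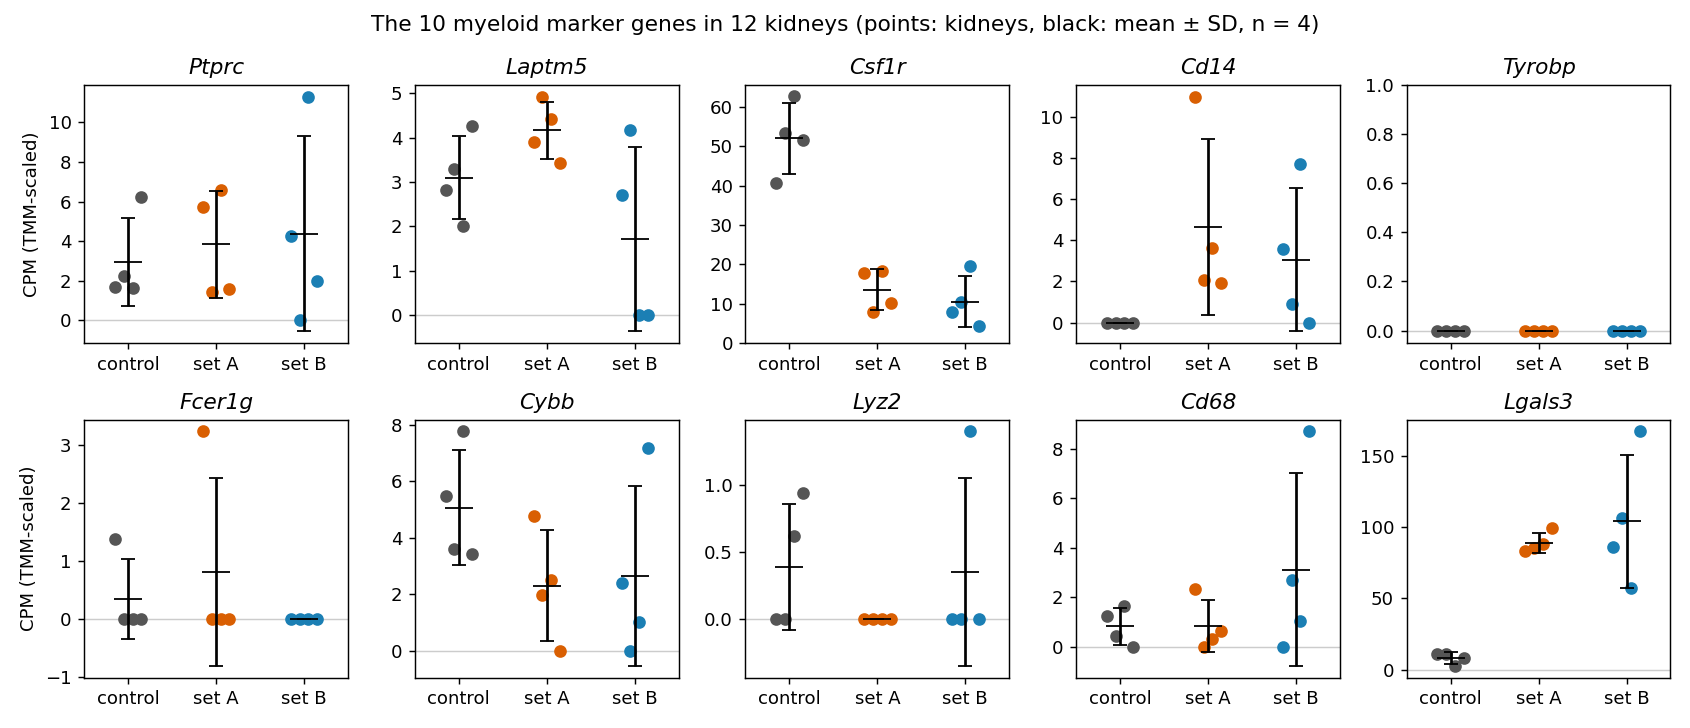
Level of each of the 10 marker genes (CPM scaled by TMM, linear axes that differ between panels) in the control, set A and set B kidneys. Points are kidneys and the black bars are the mean ± SD of 4 kidneys. Csf1r is lower in all 8 ischemic kidneys than in any control kidney, Lgals3 is higher in all 8, and the other panels overlap between groups, except Cd14 in set A against the control kidneys.

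In set A against control, 2 of the 7 markers tested were higher (Lgals3 and Cd14) and 1 was lower (Csf1r), against 10.5% of all genes tested that were higher and 11.7% that were lower. In set B against control the same 2 were higher and the same 1 was lower, against 10.9% and 11.9% of all genes. The median log2 fold change over the 7 markers was 0.38 for set A and 0.57 for set B, and over all genes tested it was -0.02 in both. The fitted value of Cd14, whose controls are all at 0, was the highest of the 7. Its size does not set these medians, but its presence raises them. Without Cd14 the set A median would lie between -0.01 (Cd68) and 0.38 (Ptprc). The set B median would lie between -0.85 (Laptm5) and 0.57 (Ptprc), so the markers have no firm lean upward. The 2 comparisons share their control kidneys, and Cd14 passed the filter only through the ischemic kidneys. Between groups the values did not overlap for Cd14, Csf1r and Lgals3 in set A, where 28.2% of all genes tested did not overlap, and for Csf1r and Lgals3 in set B, where this held for 26.7% of all genes.

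Csf1r encodes the receptor for the growth factors CSF1 and IL-34, on which most tissue macrophages depend. The gene lies on chromosome 18 from 61100598 to 61132149, on the plus strand (mm10). Its level was 40.7, 53.4, 62.7 and 51.6 CPM in the control kidneys, 17.9, 7.96, 18.2 and 10.2 CPM for set A and 7.95, 10.5, 19.5 and 4.19 CPM for set B. The lowest control kidney was above the highest ischemic kidney, and the ranges of both ischemic sets overlapped, with the lowest value in set B replicate 4. The means were 52.1 ± 9.05 CPM in control, 13.5 ± 5.25 CPM for set A and 10.5 ± 6.53 CPM for set B (SD, n = 4 each). Csf1r was 3.84-fold lower in set A (log2 fold change -1.94, SE 0.39, 95% interval -2.75 to -1.13, adjusted p = 8.16e-04 in edgeR) and 4.94-fold lower in set B (log2 fold change -2.30, SE 0.39, 95% interval -3.12 to -1.48, adjusted p = 1.79e-04 in edgeR). The exons of Csf1r overlap those of Hmgxb3, a gene on the opposite strand, by 873 bases, and the strand setting of the counting is not given in the sources used here. Hmgxb3 had a mean of 112 CPM in control, 112 CPM for set A and 116 CPM for set B, and log2 fold changes of -0.01 and 0.04.

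The partners of Csf1r were followed in a list of 13 genes for the CSF1 axis and myeloid growth factors, of which 7 were tested. In set A 1 gene was higher and 1 lower, and in set B none was higher and 1 lower. Il34, which encodes a ligand of Csf1r that tubular cells can make, was at 2.11, 1.74, 2.86 and 1.44 CPM in control, 4.13, 5.73, 14.1 and 7.47 CPM for set A and 4.48, 7.72, 6.72 and 3.94 CPM for set B. All 8 ischemic kidneys were above all 4 controls. Il34 passed the test in set A (log2 fold change 1.95, adjusted p = 0.0284 in edgeR) and not in set B (1.49, adjusted p = 0.0931), and the difference between the sets was -0.46 (95% interval -1.72 to 0.79). The call of set A was lost in 7 of 15 alternatives, among them without control replicate 1, 2 or 4 and without set A replicate 3 or 4 (adjusted p up to 0.171 in edgeR). Csf1, the other ligand, was counted in 1 control kidney, 3 set A kidneys and 4 set B kidneys, up to 5.52 CPM, and did not pass (log2 fold changes 3.31 and 3.37, adjusted p = 0.289 and 0.274 in edgeR). Cebpa, a transcription factor of myeloid cells that hepatocytes and other epithelia also use, fell in both sets (log2 fold changes -0.73 and -1.40), and its call in set A was lost without control replicate 1, 2 or 4 or set A replicate 4 (adjusted p up to 0.0713 in edgeR). Spi1, which encodes the myeloid and B cell factor PU.1, had a mean of 9.34 ± 2 CPM in control, 15.7 ± 12 CPM for set A and 17.4 ± 10.7 CPM for set B, and did not pass (adjusted p = 0.354 and 0.235 in edgeR).

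Cd14 encodes the co-receptor that hands bacterial lipopolysaccharide (LPS) to the receptor complex of TLR4 and MD-2. The gene lies on chromosome 18 from 36725067 to 36726798, on the minus strand. No control kidney had a count, the set A kidneys had 348, 48, 164 and 32 counts, and the set B kidneys had 107, 14, 160 and 0 counts. These correspond to 11, 2.05, 3.61 and 1.93 CPM for set A and to 3.60, 0.886, 7.74 and 0 CPM for set B. All set A kidneys were therefore above all controls, whereas set B replicate 4 was at 0 like the controls. Cd14 passed the test in set A (adjusted p = 0.00164 in edgeR) and set B (adjusted p = 0.00240). It passed the count filter only through the ischemic kidneys, where it is high, so that these calls lend little beyond the counts above. In the fit of only control and set B kidneys it did not pass the filter and had no test, and the exact permutation test of set B gave p = 0.143. No fold is given, because a listed 0 in these data did not show that a transcript was absent. Of 11 genes in the list for LPS recognition, 2 were tested and neither passed in either set. Ly96, which encodes MD-2, was listed at 0 in all kidneys, Tlr4 had 10 counts in set B replicate 2 and none elsewhere, and Lbp had 24 counts in set A replicate 1 and none elsewhere.

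Lgals3 encodes galectin-3, a lectin that binds galactosides and is abundant in macrophages and in several epithelia. The gene lies on chromosome 14 from 47367751 to 47386160, on the plus strand. Its level was 11.1, 10.9, 2.62 and 8.05 CPM in the control kidneys, 83.5, 85.0, 87.8 and 99.4 CPM for set A and 85.9, 106, 57.1 and 167 CPM for set B. The lowest ischemic kidney was above the highest control, set A was tight, and set B was spread between replicate 3 at the low end and replicate 4 at the high end. The means were 8.18 ± 3.96 CPM in control, 88.9 ± 7.21 CPM for set A and 104 ± 46.7 CPM for set B (SD, n = 4 each). Lgals3 was 10.9-fold higher in set A (log2 fold change 3.44, SE 0.37, 95% interval 2.67 to 4.21, adjusted p = 7.35e-07 in edgeR) and 12.7-fold higher in set B (log2 fold change 3.67, SE 0.37, 95% interval 2.89 to 4.44, adjusted p = 3.75e-07 in edgeR).

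In a list of 8 other genes for galectins and the galectin-3 binding protein, 4 were listed at 0 in all kidneys, 4 were tested, and 1 was higher in both sets. That gene was Lgals1, which encodes galectin-1 of fibroblasts, endothelium and leukocytes: its mean was 24.1 ± 6.19 CPM in control, 94.9 ± 38.8 CPM for set A and 112 ± 44.4 CPM for set B (log2 fold changes 1.98 and 2.22, adjusted p = 1.44e-04 and 4.53e-05 in edgeR). Markers of injured tubules moved beside Lgals3 and Cd14. Of 9 such genes, 7 were higher in both sets. Over all genes tested 10.5% were higher and 11.7% lower in set A, and 10.9% and 11.9% in set B. The summed level of the 9 injured tubule genes lay at 223 to 274 CPM in control, 2156 to 2436 CPM for set A and 1700.3 to 1895 CPM for set B. Lcn2, which encodes an iron-carrier binding protein of injured tubules and of neutrophil granules, had at most 1 count in each control kidney, 104 to 558 counts in set A and 185 to 430 counts in set B. Havcr1, which encodes KIM-1 of the injured proximal tubule, had at most 1 count in each control kidney, 93 to 636 counts in set A and 12 to 622 counts in set B. Like Cd14, Lcn2 and Havcr1 passed the count filter only through the ischemic kidneys, where they are high. Their calls therefore lend little beyond these counts. Of 10 genes of normal nephron segments, none was higher, set A had 5 lower (that of Cdh16 was lost in 4 of 15 alternatives) and set B had 4, and their sum lay at 7916 to 8687 CPM in control, 1531 to 1874 CPM for set A and 1673 to 2078 CPM for set B. The part of these markers in the values of Lgals3, Cd14 and Csf1r was not tested.

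**Figure D2:**
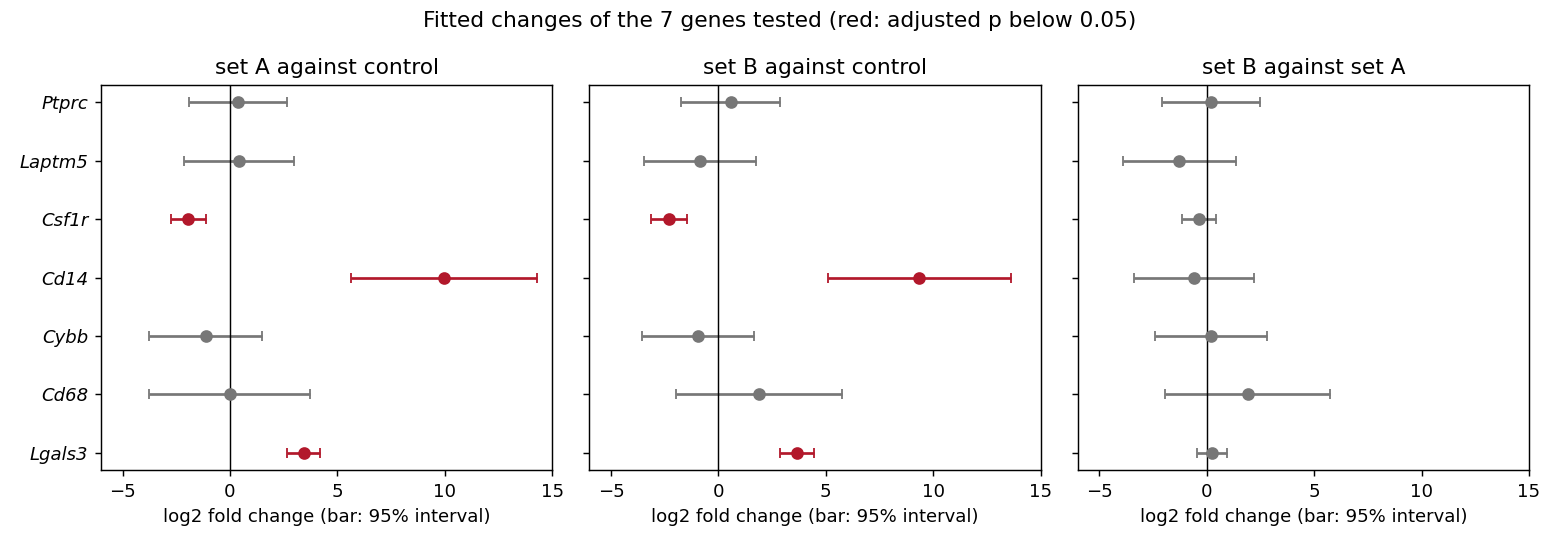
Fitted log2 fold change (x axis) of the 7 marker genes tested, for each ischemic set against control and for set B minus set A. Bars are 95% intervals and red points have an adjusted p below 0.05; the value of Cd14 against control is fitted to control kidneys that are all at 0 and is no bound. Lgals3 and Csf1r have intervals narrower than 2 log2 units, whereas those of Ptprc, Laptm5, Cybb and Cd68 span more than 4 log2 units.

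Ptprc encodes CD45, the tyrosine phosphatase on the surface of all nucleated blood cells, and lies on chromosome 1 from 138062861 to 138175708. Its level was 1.68, 2.26, 1.66 and 6.25 CPM in control, 5.75, 1.46, 6.59 and 1.57 CPM for set A and 4.28, 0, 11.3 and 1.97 CPM for set B. Values within each group differed several-fold, 1 set B kidney had no count, and the groups overlapped. The log2 fold change was 0.38 in set A (95% interval -1.90 to 2.65, adjusted p = 0.891 in edgeR) and 0.57 in set B (-1.72 to 2.85, adjusted p = 0.811), so that a change of 3-fold in either direction was within both intervals. Without set B replicate 3, the highest of set B, the value of set B was -0.52, and without control replicate 4, the highest control, that of set A was 1.05.

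Laptm5 encodes a lysosomal membrane protein of leukocytes that limits the surface level of antigen receptors, and lies on chromosome 4 from 130913125 to 130936141. Its level was 2.83, 3.30, 2.01 and 4.26 CPM in control, 3.90, 4.92, 4.41 and 3.43 CPM for set A and 2.70, 4.18, 0 and 0 CPM for set B. Set B held both kidneys without a count and kidneys within the control range. The log2 fold change was 0.43 in set A (95% interval -2.14 to 2.99, adjusted p = 0.890 in edgeR) and -0.85 in set B (-3.44 to 1.74, adjusted p = 0.731). With 1 kidney left out, the value of set B ran from -1.78 (without set B replicate 2) to -0.44 (without set B replicate 4). In a list of 16 other genes shared by most leukocytes, 14 were tested and none passed in either set, with median log2 fold changes of 0.45 and 0.25. The summed level of the 16 genes lay at 72.5 to 97.2 CPM in control, 45.3 to 166 CPM for set A and 62.9 to 129 CPM for set B.

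Cybb encodes gp91phox, the catalytic subunit of the phagocyte NADPH oxidase, which makes superoxide, and lies on the X chromosome from 9435252 to 9487771. Its level was 5.47, 3.61, 7.76 and 3.42 CPM in control, 4.76, 1.97, 2.51 and 0 CPM for set A and 2.39, 0, 1.02 and 7.17 CPM for set B. Most ischemic kidneys were below the lowest control, but 1 kidney of each set lay within the control range. The log2 fold change was -1.13 in set A (95% interval -3.75 to 1.5, adjusted p = 0.648 in edgeR) and -0.94 in set B (-3.56 to 1.68, adjusted p = 0.701). Without set B replicate 4, the highest of set B, the latter was -2.14 (adjusted p = 0.330 in edgeR). Among 7 other oxidase genes, 6 were tested, with 1 higher and 2 lower in set A and none higher and 2 lower in set B. The gene higher in set A was Rac1, a small GTPase of nearly all cells that also serves the oxidase (log2 fold change 0.35, adjusted p = 0.0411 in edgeR), and its call was lost in 8 of 15 alternatives (adjusted p up to 0.115). Cyba, which encodes the p22phox partner of gp91phox and of the tubular oxidase Nox4, fell from 196 ± 26.7 CPM to 64.3 ± 17.2 CPM for set A and 49.5 ± 23.8 CPM for set B (adjusted p = 2.08e-04 and 2.40e-05 in edgeR). Nox4, an oxidase of the tubular epithelium, fell too (log2 fold changes -2.16 and -1.38). Ncf1, a cytosolic subunit of the phagocyte enzyme, did not pass (log2 fold changes 1.09 and 2.37).

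Cd68 encodes a heavily glycosylated protein of late endosomes and lysosomes that is widely used to stain macrophages, and lies on chromosome 11 from 69664213 to 69666153. Its level was 1.25, 0.442, 1.66 and 0 CPM in control, 2.35, 0, 0.308 and 0.663 CPM for set A and 0, 2.72, 1.06 and 8.70 CPM for set B. Each group held 1 kidney without a count, and the highest value was that of set B replicate 4. The log2 fold change was -0.01 in set A (95% interval -3.75 to 3.74, adjusted p = 0.999 in edgeR) and 1.89 in set B (-1.95 to 5.74, adjusted p = 0.561). Without set B replicate 4 the value of set B was 0.59 (adjusted p = 0.918 in edgeR), and without set A replicate 1 that of set A was -1.33 (adjusted p = 0.775). In a list of 7 genes for the LAMP family, to which Cd68 belongs, for other lysosomal genes and for the lysozyme Lyz1, 5 were tested, with 1 higher and 1 lower in set A and 1 higher and 2 lower in set B. Ctsd, which encodes the lysosomal protease cathepsin D, rose from 66.6 ± 12.4 CPM to 197 ± 37.5 CPM for set A and 257 ± 88.1 CPM for set B, whereas Lamp2, a lysosomal membrane protein of nearly all cells, fell from 207 ± 8.90 CPM to 70.2 ± 15.3 CPM and 75.6 ± 13.4 CPM. Lamp1, a like protein, was lower in set B (log2 fold change -0.68, adjusted p = 0.0344 in edgeR), a call lost in 7 of 15 alternatives (adjusted p up to 0.0945), and did not pass in set A (-0.57, adjusted p = 0.0779).

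The promoters of markers on both sides of these results are shown, taken from RefSeq (GRCm38.p6) as 250 bases before to 50 bases after the start of the transcript, in the direction of transcription. Of the 10 markers, 7 had such a sequence, with 8 windows in all, of which 2 belong to Ptprc. They were searched on both strands for GAGGAA, the core of sites bound by PU.1, and for TGANTCA, the AP-1 site, and matches are in capitals in the direction printed. GAGGAA was found in 4 of the 8 windows (1 of Ptprc and those of Laptm5, Cd68 and Cybb) and in 28.3% of all 32851 promoters, and TGANTCA in 2 of the 8 (Cd68 and Cybb) and in 7.81% of all. Laptm5 and Cybb are shown as markers with a match whose level did not pass the test, and Lgals3, which rose, as a marker with no match to either. The matches shown do not overlap each other. The Lgals3 window had 18 CpG and 67.0% G and C, the Laptm5 window 9 CpG and 62.3%, and the Cybb window 1 CpG and 35.3%. A match is only a run of letters, and no binding was measured here. The windows are chr4:130913066-130913365 on the plus strand for Laptm5, chrX:9469275-9469574 on the minus strand for Cybb and chr14:47373610-47373909 on the plus strand for Lgals3. Those of Cybb and Lgals3 lie inside the gene spans given above, away from their outer start, and any other starts were not searched.
Laptm5: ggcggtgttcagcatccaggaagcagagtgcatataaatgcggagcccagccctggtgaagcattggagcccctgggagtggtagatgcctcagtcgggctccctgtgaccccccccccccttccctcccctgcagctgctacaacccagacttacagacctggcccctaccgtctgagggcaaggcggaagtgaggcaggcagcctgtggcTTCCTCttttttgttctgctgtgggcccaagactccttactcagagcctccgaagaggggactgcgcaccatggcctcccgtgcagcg
Cybb: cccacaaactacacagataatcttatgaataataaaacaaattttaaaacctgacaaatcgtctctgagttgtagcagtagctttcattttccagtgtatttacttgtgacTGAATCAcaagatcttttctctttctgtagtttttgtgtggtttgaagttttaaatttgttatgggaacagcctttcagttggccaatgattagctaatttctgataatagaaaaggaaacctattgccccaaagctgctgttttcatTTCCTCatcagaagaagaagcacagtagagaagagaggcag
Lgals3: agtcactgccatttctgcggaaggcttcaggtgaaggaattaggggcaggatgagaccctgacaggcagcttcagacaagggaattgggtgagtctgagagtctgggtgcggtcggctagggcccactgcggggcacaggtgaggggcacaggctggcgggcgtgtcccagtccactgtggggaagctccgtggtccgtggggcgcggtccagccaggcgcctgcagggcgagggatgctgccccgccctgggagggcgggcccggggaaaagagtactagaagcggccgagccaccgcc

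Tyrobp encodes DAP12, the adaptor that carries an ITAM signal for TREM2 and other activating receptors of myeloid and NK cells, and lies on chromosome 7 from 30413760 to 30417585. It had 0 counts in all 12 kidneys. Fcer1g encodes the common gamma chain of Fc receptors and lies on chromosome 1 from 171229572 to 171234365. It had 29 counts in control replicate 1, 102 counts in set A replicate 1 and none in the other 10 kidneys. In a list of 17 genes of Fc receptors and ITAM signalling, 6 were listed at 0 in all kidneys (Fcgr3, Fcgr4, Trem2, Trem1, Clec7a and Pira2) and 8 were tested, with 1 higher in set A and 2 higher in set B. Inpp5d, which encodes the inositol phosphatase SHIP1 that dampens these signals, was higher in both sets (29.7 ± 4.37 CPM in control, 50.1 ± 8 CPM for set A and 49.5 ± 11.9 CPM for set B, adjusted p = 0.0134 and 0.0159 in edgeR). Lyn, a Src family kinase that also acts outside myeloid cells, was higher in set B (log2 fold change 0.84, adjusted p = 0.0396 in edgeR) and did not pass in set A (0.53, adjusted p = 0.216). The call of Lyn was lost in 7 of 15 alternatives (adjusted p up to 0.127), that of Inpp5d without set A replicate 3 (0.0512) and, for set B, without control replicate 2 or 3 or set B replicate 4 (up to 0.0661).

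Lyz2 encodes lysozyme M, which cuts bacterial cell walls and is among the most abundant transcripts of macrophages and neutrophils. It lies on chromosome 10 from 117277331 to 117282321, next to its near copy Lyz1 (117287797 to 117292868), so that reads shared by both could be left uncounted. It had 16 counts in control replicate 3, 36 counts in control replicate 4, 29 counts in set B replicate 3 and none in the other 9 kidneys. These values lay between 0.617 and 1.40 CPM, and Lyz1 was at 0 in all 12 kidneys.

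A count of 0 in this table did not show that a transcript was absent. Of the 120 values of the 10 markers, 44 (36.7%) were 0, none lay between 1 and 9 and the smallest value above 0 was 11. Over all genes, 53.0% of 281040 values were 0 and 1.24% lay between 1 and 9. B2m, chosen after its values were seen because nearly all nucleated cells express it, had 7, 0, 31 and 0 counts in control, 19, 0, 43 and 0 in set A and 0 in all set B kidneys. Zeros were also more frequent among short genes. Of 831 protein-coding genes with at most 800 exonic bases, 72.4% had 0 counts in all 12 kidneys, and Tyrobp (564 bases) and Fcer1g (748 bases) are of this length. The share was 54.7% from 800 to 1500 bases, where Cd68 and Lyz2 lie, 36.1% from 1500 to 3000 bases, where Cd14, Laptm5 and Lgals3 lie, 23.1% from 3000 to 5000 bases, where Csf1r and Cybb lie, and 15.4% above 5000 bases, where Ptprc lies. The zeros of Tyrobp, Fcer1g and Lyz2 are therefore given only as listed values.

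**Figure D3:**
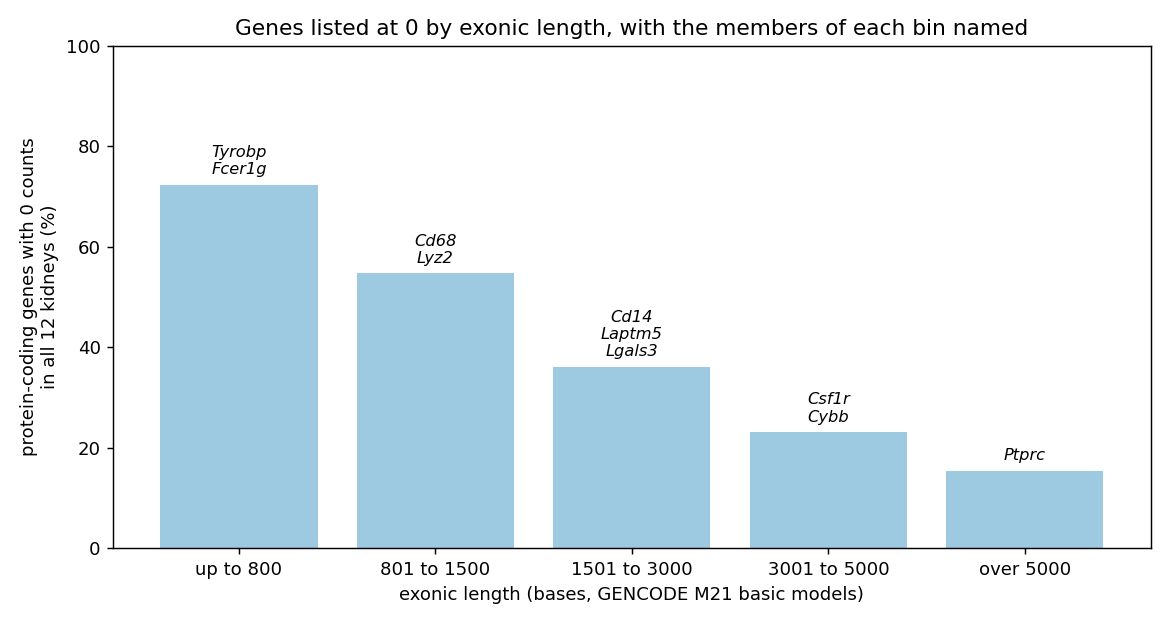
Share of protein-coding genes with 0 counts in all 12 kidneys (y axis, percent) in bins of exonic length (x axis, bases, GENCODE M21 basic gene models). The share falls from 72.4% in the shortest bin to 15.4% in the longest, and the marker genes of each bin are named above its bar.

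The levels of the markers were compared with each other after division by exonic length. In the controls Csf1r led with 10.7 ± 1.85 CPM per kilobase, followed by Lgals3 with 5.15 ± 2.49, while Laptm5, Cybb, Cd68 and Ptprc, followed at 1.19 ± 0.362, 1.07 ± 0.425, 0.666 ± 0.599 and 0.579 ± 0.431. Each of these 4 differed from its neighbour in the order by less than the SD of either, whereas Laptm5 and Ptprc differed by more. In set A Lgals3 led with 56.0 ± 4.54 CPM per kilobase, ahead of Cd14 with 2.84 ± 2.64 and Csf1r with 2.77 ± 1.08, which did not differ beyond their spread. In set B Lgals3 led with 65.5 ± 29.4 CPM per kilobase, and Cd68 (2.48 ± 3.09), Csf1r (2.16 ± 1.34) and Cd14 (1.86 ± 2.12) lay within each other's spread. Of the summed CPM of the 10 markers, Csf1r made up 71.0% ± 6.74 in control, 11.2% ± 3.48 for set A and 9.45% ± 7.36 for set B, and Lgals3 made up 11.5% ± 6.10, 75.3% ± 10.1 and 77.9% ± 14.0. The direction of a summed marker level therefore depended on which genes were summed. The sum of all 10 was 73.0 ± 6.15 CPM in control, 119 ± 12.2 CPM for set A and 129.9 ± 41 CPM for set B. Without Lgals3 it was 64.8 ± 9.56, 30.2 ± 15 and 25.8 ± 10.9 CPM. Without Lgals3 and Csf1r it was 12.7 ± 2.25, 16.6 ± 10.5 and 15.3 ± 6.34 CPM. Without Lgals3, Csf1r and Cd14 it was 12.7 ± 2.25, 12 ± 6.35 and 12.2 ± 4.99 CPM. The genes left out of this last sum are those that passed the test, so the closeness of its means follows in part from that choice.

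**Figure D4:**
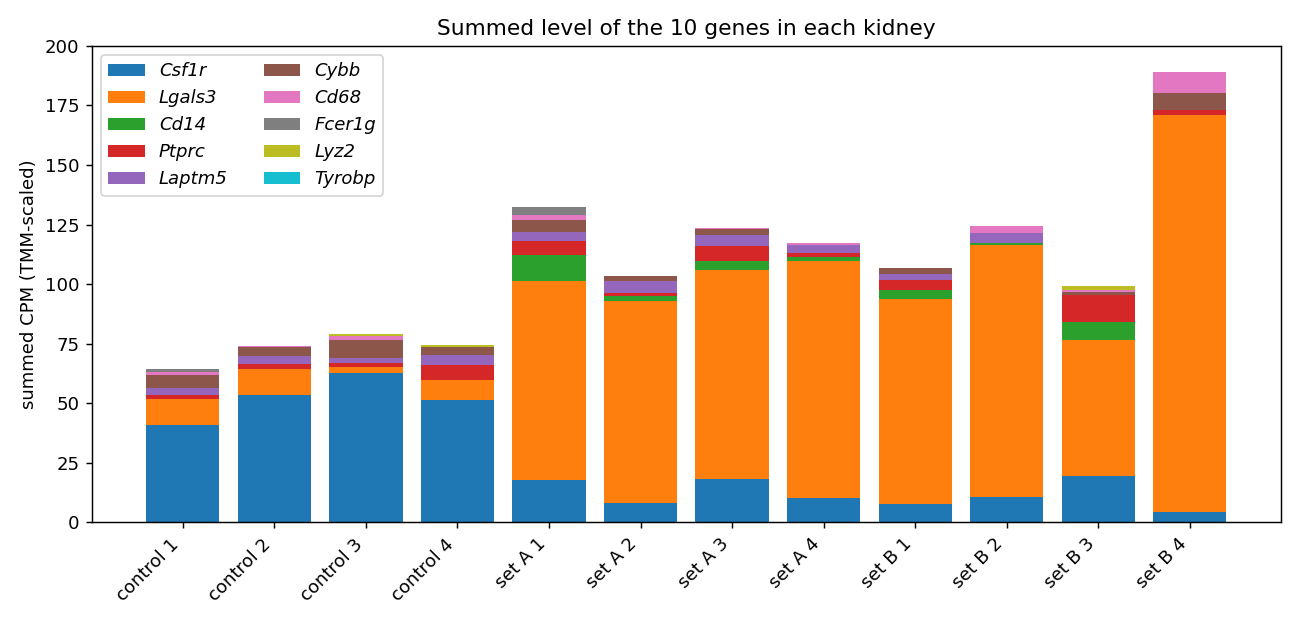
Summed level of the 10 marker genes (y axis, CPM scaled by TMM) in each of the 12 kidneys, with a colour for each gene. Csf1r makes up most of the bar in every control kidney and Lgals3 in every ischemic kidney.

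Across the kidneys the 7 markers tested did not rise and fall together. Over the 8 ischemic kidneys, Pearson's r of log2 CPM for the 21 pairs ran from -0.91 to 0.85 with a median of -0.07, and 8 pairs were above 0. Csf1r and Cd14 had the highest value at 0.85, while Lgals3 had -0.91 with Cd14 and -0.79 with Csf1r. Set B replicate 4 held the highest Lgals3 and the lowest Csf1r and Cd14 of the 8, and set B replicate 3 the lowest Lgals3 and the highest Csf1r. Over all 12 kidneys the pairs ran from -0.92 to 0.66 with a median of -0.12. These values describe few kidneys that share library depth and the groups themselves, and several pairs contain zeros. By Pearson's r with the mean of the 7 standardised levels over the 8 ischemic kidneys, the genes most alike among 6447 included Col4a2 and Ranbp10 (0.94 each), Plxnd1 (0.92) and Ppp1r9b (0.91). These are the highest of 6447 values from 8 kidneys, and what unrelated genes would reach was not tested. The mean also joins markers that did not move together, so no shared pattern is read from it.

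Between the ischemic sets, edgeR called none of the 7 markers tested, the unadjusted p was below 0.05 for 0 of the 7, and the values of both sets overlapped for each. Among all genes tested 0.00857% passed, which is 1 gene, 587 had an unadjusted p below 0.05, and 2.61% did not overlap. The difference of set B minus set A on the log2 scale was 0.23 for Lgals3 (95% interval -0.47 to 0.92) and -0.36 for Csf1r (-1.15 to 0.43). It was -0.61 for Cd14 (-3.39 to 2.18), -1.28 for Laptm5 (-3.89 to 1.34), 0.19 for Ptprc (-2.08 to 2.47), 0.19 for Cybb (-2.41 to 2.79) and 1.90 for Cd68 (-1.94 to 5.74). Without set B replicate 4 the difference of Cd68 was 0.60, and without set A replicate 1 it was 3.25. The interval of Cd14, Laptm5, Ptprc, Cybb and Cd68 each held a 4-fold difference in at least 1 direction. In exact two-sided permutation tests of CPM, 4 kidneys against 4, the smallest possible p of 0.0286 was reached in 5 of 27 tests: for Csf1r and Lgals3 in both sets against control and for Cd14 in set A against control (0.154 after Benjamini-Hochberg adjustment over the 27 exact tests). Cd14 in set B gave an exact p of 0.143.

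The name of the marker set was checked against other defining genes of the same cells. In the lists of resident macrophage, monocyte and recruited macrophage, neutrophil, dendritic cell and pan-leukocyte genes together, 75 genes were matched, of which 27 (36.0%) were at 0 in all 12 kidneys and 28 were tested. Among all protein-coding genes 32.4% were at 0, a share near that of the lists. Of the 28 genes tested, 3 were higher and 1 lower in set A, and 2 were higher and none lower in set B. Over all genes tested 10.5% were higher and 11.7% lower in set A, and 10.9% and 11.9% in set B, so that these shares are near or below those of all genes. The 10 genes are named here by their symbols rather than as a measure of macrophage number.

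Among 16 resident macrophage genes 6 were tested and 6 were at 0 in all kidneys (Cd163, Timd4, Ms4a7, Vsig4, Lyve1 and Fcrls). Mertk, a receptor for the uptake of dying cells, was lower in set A (log2 fold change -1.19, adjusted p = 0.0205 in edgeR) and did not pass in set B (-0.79, adjusted p = 0.127). Its call was lost without control replicate 3 or 4 or set A replicate 1 (adjusted p up to 0.0765 in edgeR). Adgre1, which encodes the macrophage antigen F4/80, had 18, 16, 37 and 0 counts in control, 0, 63, 172 and 37 in set A and 0, 16, 0 and 0 in set B. Mrc1, the mannose receptor of macrophages and some endothelium, was at 9.07, 4.97, 5.56 and 2.72 CPM in control, 0.317, 1.97, 0.705 and 0.723 CPM for set A and 1.89, 2.40, 4.45 and 0.127 CPM for set B, and did not pass (adjusted p = 0.0936 and 0.430 in edgeR). The other genes tested did not pass either, with log2 fold changes for set A and set B of 1.68 and -1.42 for Adgre1, 0.54 and 1.09 for C1qb, 0.05 and -1.22 for Folr2 and -2.50 and -1.77 for Aif1. The summed level of the 16 genes lay at 25.0 to 32.9 CPM in control, 11.9 to 17.8 CPM for set A and 12.3 to 19.3 CPM for set B. Without Mertk and Mrc1 it lay at 2.54 to 6.22 CPM in control, 2.70 to 8.32 CPM for set A and 0 to 4.64 CPM for set B.

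Among 18 genes of monocytes and recruited macrophages 5 were tested, 5 were at 0 in all kidneys (Ly6c2, Ms4a4c, Trem2 and Msr1 among them), and set A had 3 higher and set B had 2. The 3 were Thbs1 and Cd9, in both sets, and Fn1, in set A, whose call was lost in 6 of 15 alternatives (adjusted p up to 0.112 in edgeR). They encode thrombospondin-1, a tetraspanin and fibronectin, which platelets, epithelium and stromal cells also make. Cd9 rose from 108 ± 15.4 CPM to 325 ± 99.6 CPM for set A and 348 ± 129 CPM for set B, and Thbs1 from 238 ± 37.8 CPM to 721 ± 427 CPM and 543 ± 127 CPM. Of 15 neutrophil genes matched, 10 were at 0 in all kidneys, S100a8 and Mpo among them, 1 was tested and none passed. Their summed level was 0 in all control kidneys, 0 to 2.84 CPM for set A and 0 to 6.41 CPM for set B. Of 10 dendritic cell genes 2 were tested and none passed.

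**Figure D5:**
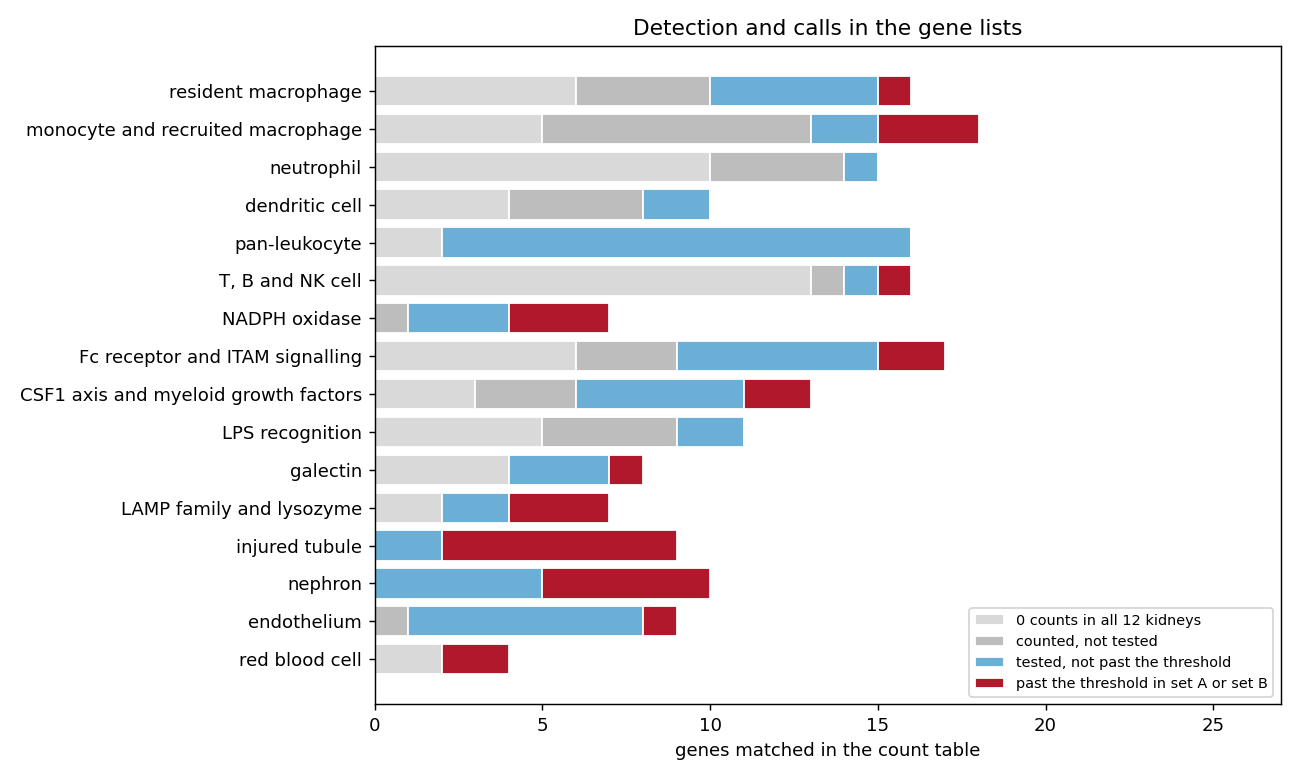
Number of genes (x axis) in each gene list that had 0 counts in all 12 kidneys, were counted but not tested, were tested without passing, or had an adjusted p below 0.05 in set A or set B against control. In the neutrophil list 10 of 15 genes are at 0, in the pan-leukocyte list none of 14 tested genes passed, and in the injured tubule list 7 of 9 genes passed. Among these 7, Lcn2 and Havcr1 passed the count filter only through the ischemic kidneys. Over all genes tested 10.5% were higher and 11.7% lower in set A, and 10.9% and 11.9% in set B.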

How the data were processed

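RNA from 12 mouse kidneys was measured, with 4 kidneys in each group. Per the study's methods, the authors prepared stranded mRNA libraries (TruSeq), sequenced them as single reads, aligned the reads to mm10 by STAR, obtained gene counts by HTSeq and tested them in edgeR. The authors deposited raw counts of 23420 genes, without normalization. Versions, annotation release and strand setting are not given in the sources used here.

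The analysis used edgeR 4.0.16 (R 4.3.3). The filter kept 11664 genes (minimum count 10, minimum total 15), libraries were scaled by TMM, and 1 model with 3 group coefficients was fitted to all kidneys (common biological coefficient of variation 0.762). The 3 comparisons used two-sided F-tests of the quasi-likelihood fit, with Benjamini-Hochberg adjustment over all genes tested (threshold 0.05). Total counts were 15367342 to 44793350 per kidney. No replicate pair differed by as little as sampling noise (lowest chi-square per degree of freedom 49.9 over 18 pairs). Replicates of a group are kidneys of separate mice. Single values were compared by exact permutation tests. The procedure was also run on counts simulated from a negative binomial model. The genes changed there were not among those with the lowest means, and the many zeros of the real counts were not modelled. The simulation therefore does not bear on markers near the floor. Other steps used Python 3.11.15 with pandas 2.3.3, NumPy 2.4.6, matplotlib 3.10.9 and SciPy 1.17.1. Positions and exonic lengths are from GENCODE M21 basic models.

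The alternatives were DESeq2 1.42.0, RLE size factors, no filter, a filter on CPM, pairwise fits, limma-trend (limma 3.58.1), a block for the replicate number and leaving out each kidney. The markers, the 16 lists and the tests were chosen with earlier results of these data known. The naming rule took all 10 markers, from each list the 2 genes with the largest rise and the 2 with the largest fall among those called in both sets, list genes at the floor in every kidney, fixed partners of the markers and the genes most alike in pattern. Outside this rule, and chosen after their values were seen, are Hmgxb3, Spi1, B2m, Mertk, Mrc1, C1qb, Folr2, Aif1, Fn1, Rac1, Lamp1, Lyn, Cdh16, Tek and Lck. Of 182 list genes, 180 were matched and 89 were tested. A few genes that these rules name are not reported here.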

Additional observations from a re-analysis of the deposited data

Results flagged for a closer look

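Of 24 groups of 4 kidneys with differing values of a marker, 4 held a kidney whose distance from its nearest neighbour was above the critical share of the group's whole range (Dixon's test at 95%). For normally distributed values chance gives about 1 in 20, a rate that does not apply to groups of mostly zeros: in 3 of the 4, a single counted kidney stood beside zeros, where the share is always 1. Lyz2 was at 1.40 CPM (29 counts) in set B replicate 3 and at 0 in the other 3 kidneys of set B. Fcer1g was at 1.39 CPM (29 counts) in control replicate 1 and at 3.24 CPM (102 counts) in set A replicate 1, with 0 in the other 3 kidneys of each group. Ptprc was at 6.25 CPM (239 counts) in control replicate 4, where the distance was 0.869 of the range.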

How the results depend on the processing

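Against control 3 markers passed in each set, and 0 passed between the sets, under the alternatives run, except that 2 (Csf1r and Lgals3) passed in the fit of only the control and set B kidneys, where Cd14 did not pass the filter. Lgals3 and Csf1r kept their direction and passed: log2 fold changes ran from 3.13 to 3.63 and from -2.10 to -1.75 in set A, and from 3.34 to 3.85 and from -2.80 to -2.04 in set B. Cd14 against control is no sign of stability, because control kidneys all at 0 fix its direction and its fitted size depends on how a method treats zeros. Of 314 values recomputed, 289 kept their direction and their side of the threshold, and 25 reversed, none of which had passed; the 289 include those of Cd14 against control. The cause of the reversals was not tested.

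In set A, Cd68 moved to 0.01 under DESeq2 and RLE, and to 0.03 under the filter on CPM and with only 2 groups fitted. Under limma-trend, set B gave -0.64 for Ptprc, and set B minus set A gave -0.10 for Cybb and -0.92 for Ptprc. With 1 kidney left out, set A gave -1.33 to 0.55 for Cd68 and -0.01 to 1.05 for Ptprc, set B gave -0.52 to 1.23 for Ptprc, and set B minus set A gave -1.63 to 0.27 for Cd14, -1.01 to 0.81 for Cybb, -0.10 to 0.43 for Lgals3 and -0.88 to 0.60 for Ptprc. With the replicate block, the counts were again 3, 3 and 0, and Ptprc gave -0.17 in set A, -0.48 in set B and -0.31 between the sets, and Cybb -0.33 between the sets. Same-numbered kidneys correlated at -0.06 to 0.05, and 2 of 24 comparisons were best with the own number, so no pairing by number was seen. These values cannot show whether kidneys of different groups came from the same mouse.

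The 95% intervals of Ptprc, Laptm5, Cybb and Cd68, which had kidneys at 0, spanned more than 4 log2 units in each comparison. A floor of 3 counts was 0.0661 to 0.19 CPM. What set the zeros was not tested.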

Other observations

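Single genes of other cell types were also followed. Cd3e, a chain of the T cell receptor complex, had 23, 182, 18 and 30 counts in the control kidneys and was listed at 0 in all 8 ischemic kidneys, which did not show that the transcript was absent. Cd3e passed the count filter only through the control kidneys, where it is high, and its call (adjusted p = 0.0412 for set A and 0.0472 for set B in edgeR) was lost in 9 of 14 and 10 of 14 alternatives, among them each fit without 1 of the kidneys compared. In its list of T, B and NK cell genes 13 of the 16 genes were at 0 in all 12 kidneys, and Lck, the other gene tested, did not pass (log2 fold changes -0.42 and 0.08). The red cell gene Hbb-bs, a beta globin, fell from 83.8 ± 26.6 CPM in control to 35.4 ± 9.97 CPM for set A and 21.4 ± 7.24 CPM for set B. Of 8 endothelial genes tested, none passed in set A and 1, Tek, was lower in set B.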
